A study of Mus musculus with 6 samples.

Results

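A set of 9 genes of the early germ line was followed here in mouse embryoid bodies (EBs), the spheres that embryonic stem cells form when they differentiate in suspension. The rule takes them by name: the Dppa genes Dppa2, Dppa3, Dppa4 and Dppa5a, the primordial germ cell (PGC) regulators Prdm1, Prdm14 and Tfap2c, and the germ cell genes Dazl and Kit. A total of 8 of these 9 genes had a row among the 15266 genes of the deposited table. Dazl, an RNA-binding protein gene of later germ cells, was not analysed here.

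The EBs came from W9.5 mouse embryonic stem cells grown in serum without LIF and collected on day 4. EVX1-Δfs (clone 14) carries small frameshift mutations on both alleles of the Evx1 homeodomain, while Del#3 (Evx1/Evx1asΔ2.6kb) carries a larger deletion that takes out the promoter shared by Evx1 and the antisense lncRNA Evx1as, the further promoter of Evx1as and part of its exons. Both lines therefore lack functional EVX1, and the lines differ in whether the RNAs of the locus are still made. EVX1-Δfs is 1 clone, and Del#3 was analysed as 1 line, so effects of the edit and of the clone cannot be told apart. Unedited W9.5 EBs were not used here. Each line had 3 mRNA-seq libraries from 3 side by side differentiations, each begun on its own day according to the series' design text. The titles number the replicates 1 to 3, and equal numbers were taken as the same differentiation, which is not stated outright. The comparison addresses the question of whether Evx1as acts independently of EVX1.

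In the mouse, PGCs arise from posterior epiblast cells that receive BMP signals at gastrulation. PRDM1 (BLIMP1), PRDM14 and TFAP2C form the core transcription factor network of PGC specification: PRDM1 represses the somatic programme, PRDM14 restores pluripotency genes and represses de novo DNA methylation, and TFAP2C acts together with both. The Dppa genes are named for developmental pluripotency association. DPPA2 and DPPA4 are SAP domain proteins that bind chromatin together. DPPA3 (STELLA, PGC7) protects methylated DNA in the zygote and marks specified PGCs, and DPPA5A (ESG1) is a KH domain RNA-binding protein of stem cells. KIT is the receptor tyrosine kinase for stem cell factor and serves PGC survival and migration, but is also made by blood progenitors and other cells.

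The edits that set the lines apart were made with the guides below. They are printed 5′ to 3′ on the plus strand with the PAM, the Cas9 recognition motif beside the target, in capitals. Each guide has 20 bases and 1 site on chromosome 6 of the mm9 genome (NCBIM37 build).
EVX1-Δfs guide, in the homeodomain exon of Evx1, chr6:52265847-52265866: ccagatgcgccgataccgcaCGG
Del#3 guide 1, chr6:52265302-52265321: cacacctggtactggcatacTGG
Del#3 guide 2, chr6:52262639-52262658: tcattagaacacgccgtttgTGG

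Libraries held between 9024579 and 15699124 reads on listed genes, and EVX1-Δfs replicate 1 was the deepest. The lines could be told apart by the edited locus. Evx1 averaged 3125 normalized counts in EVX1-Δfs and 34.6 in Del#3, and Evx1as (5730457N03Rik) averaged 648 and 24.8. These were the only 2 of 12891 genes tested that differed between the lines by limma at a Benjamini-Hochberg adjusted p under 0.05, a background of 0.0155% of genes.

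None of the 8 germ cell and Dppa genes passed that threshold. limma gave each of them an adjusted p of 1.00 with 3 libraries per line. The genes nevertheless did not all look alike. Dppa4, Dppa3 and Dppa5a averaged 59.4%, 61.0% and 64.6% of their EVX1-Δfs levels in Del#3, whereas Kit and Tfap2c averaged 101% and 100.3%. By unadjusted p under 0.05, which allows for no multiple testing, limma picked 2 of the 8 genes, Dppa4 and Dppa5a, both lower in Del#3. The same rule picked 133 genes in all, 1.03% of those tested, and 26 genes, 0.202%, when only those lower in Del#3 were counted. The members share the same 6 libraries and are not independent of each other.

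**Figure D1:**
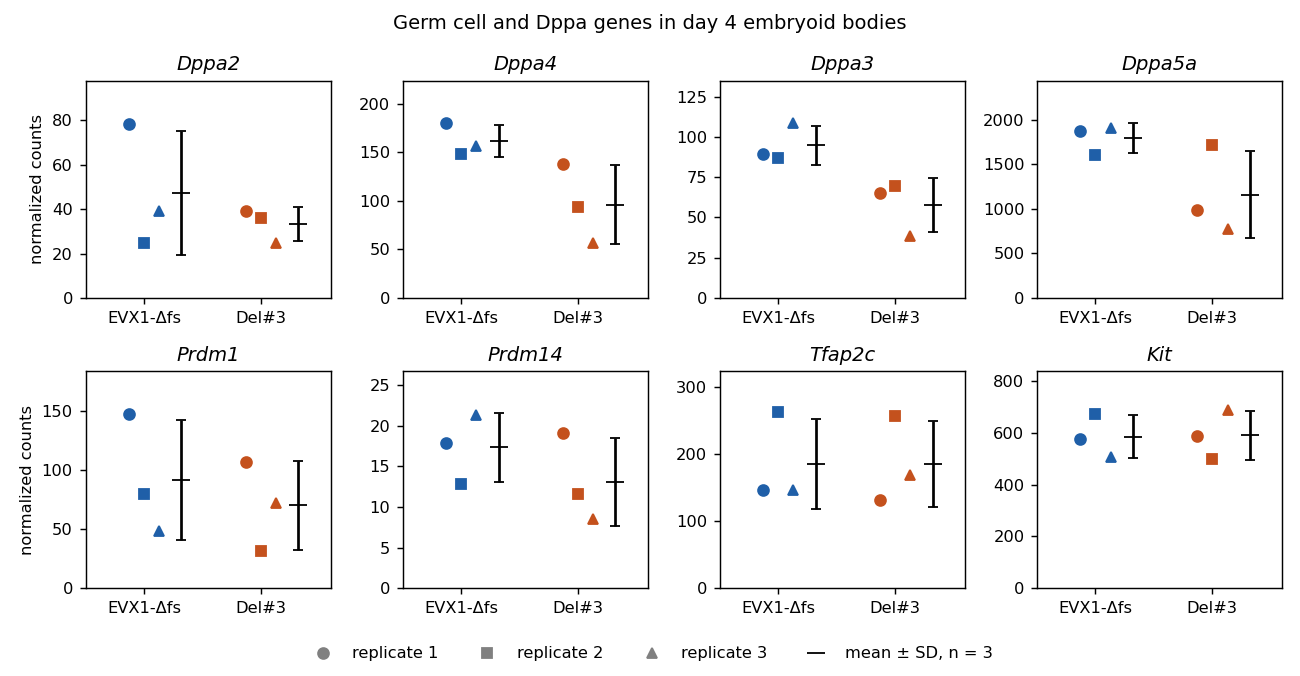
Normalized counts (vertical axis, linear from 0, 1 panel per gene) of the 8 genes in each of 3 EVX1-Δfs and 3 Del#3 libraries, with circles, squares and triangles for replicates 1, 2 and 3 and the mean ± SD (n = 3) beside each line. The lines do not overlap for Dppa4 and Dppa3 and overlap for the other 6 genes, and Del#3 replicate 3 is the lowest library in 5 panels.

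Dppa4 lies 16184 bases upstream of its paralogue Dppa2 on the same strand, with Dppa4 at chr16:48283848-48294405 and Dppa2 at chr16:48310590-48319836. Dppa4 was at 180, 149 and 157 normalized counts in EVX1-Δfs replicates 1, 2 and 3 and at 138, 94.1 and 56.6 in Del#3 replicates 1, 2 and 3. All Del#3 libraries were thus below all EVX1-Δfs libraries, and the Del#3 libraries spread more widely. The means were 162 ± 16.2 (SD, n = 3) and 96.2 ± 40.7 (SD, n = 3). On the log2(normalized count + 1) scale the limma difference was -0.83 (SE 0.36, 95% interval -1.62 to -0.043), with an unadjusted p of 0.0407. The exact two-sided permutation test gave p = 0.1, the smallest that 3 against 3 libraries can give. Within the same-numbered pairs, Del#3 was 0.765, 0.632 and 0.360 times EVX1-Δfs.

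Dppa2, the partner of Dppa4, was at 78.5, 24.6 and 39.0 normalized counts in EVX1-Δfs and at 39.1, 36.0 and 24.6 in Del#3. EVX1-Δfs replicate 1 was the highest library, and the others overlapped. The values rest on 21 to 119 reads per library. The means of 47.4 ± 27.9 and 33.2 ± 7.64 (SD, n = 3 each) gave a log2 difference of -0.37 (SE 0.47), and the exact permutation p was 0.6. Without EVX1-Δfs replicate 1 the difference was 0.070. The 2 neighbours did not follow each other closely, with a Pearson r of 0.60 between their log2 values over the 6 libraries.

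Dppa3 is located at chr6:122576428-122580290 on the plus strand, in a cluster of pluripotency genes. It was at 89.1, 86.7 and 109 normalized counts in EVX1-Δfs and at 65.4, 69.7 and 38.4 in Del#3. As with Dppa4, every Del#3 library was below every EVX1-Δfs library. The means were 94.8 ± 12.1 and 57.8 ± 16.9 (SD, n = 3 each). The limma log2 difference was -0.74 (SE 0.35, 95% interval -1.51 to 0.023), with an unadjusted p of 0.0560, and the exact permutation p was again 0.1. The paired ratios of Del#3 to EVX1-Δfs were 0.733, 0.803 and 0.354.

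Among all genes tested, 3.51% showed no overlap between the lines in either direction and 1.8% had all Del#3 libraries below all EVX1-Δfs libraries, against 2 of the 8 members. Likewise 11% of all genes were lower in Del#3 in each of the 3 same-numbered pairs, and Dppa4 and Dppa3 were the 2 members that were.

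The genes around Dppa3 were looked at after these values were seen. Nanog, the pluripotency factor gene 77216 bases downstream, averaged 1048 ± 405 normalized counts in EVX1-Δfs and 846 ± 203 in Del#3 (SD, n = 3 each), a log2 difference of -0.25 (SE 0.33). Gdf3, a TGF-β family ligand gene 16322 bases upstream, averaged 185 ± 78.3 and 167 ± 97.6, a log2 difference of -0.18 (SE 0.46). Neither passed the test.

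Dppa5a, a compact gene at chr9:78214859-78215984 on the minus strand, had the most reads of the members. It was at 1871, 1599 and 1910 normalized counts in EVX1-Δfs and at 990, 1713 and 774 in Del#3. The lines overlapped, because Del#3 replicate 2 was above EVX1-Δfs replicate 2 and the other Del#3 libraries were below all EVX1-Δfs libraries. The means were 1793 ± 170 and 1159 ± 492 (SD, n = 3 each). limma gave a log2 difference of -0.71 (SE 0.30, 95% interval -1.36 to -0.050) and an unadjusted p of 0.0373, while the exact permutation p was 0.2. The paired ratios were 0.529, 1.07 and 0.405, so the replicate 2 pair went the other way. The neighbours of Dppa5a were looked at after its values were seen. Ooep, an oocyte KH domain gene 7931 bases away, averaged 58.5 ± 8.72 and 44.7 ± 18.7 normalized counts (log2 difference -0.44, SE 0.38). Ddx43, 27599 bases away, averaged 12.4 ± 8.34 and 14.9 ± 10.9 (0.16, SE 0.68), and Mto1, 80030 bases away, 343 ± 64.3 and 325 ± 68.9 (-0.082, SE 0.28).

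**Figure D2:**
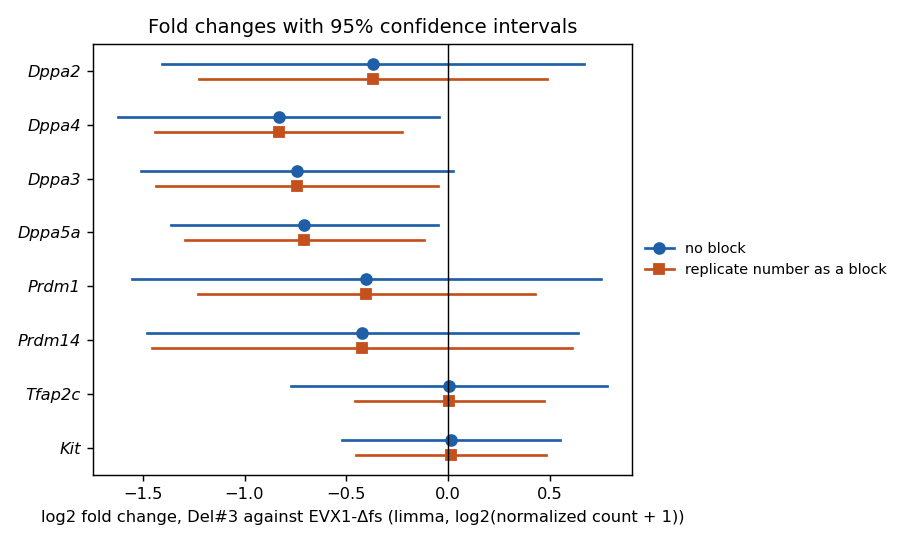
The limma log2 fold change of each gene (horizontal axis, Del#3 against EVX1-Δfs, on log2(normalized count + 1)), with bars for its 95% interval, in blue for the fit without a block and in orange for the fit blocked on replicate number. The intervals of Dppa4 and Dppa5a exclude 0 in both fits and that of Dppa3 with the block, before any adjustment for the number of genes.

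Because equal numbers were taken to mark the same differentiation, the fit was repeated with the replicate number as a block. In that fit the unadjusted p was 0.0131 for Dppa4, 0.0239 for Dppa5a and 0.0387 for Dppa3, so 3 of 8 members were under 0.05, all lower in Del#3. The background rose as well, to 4.62% of all genes in either direction and 0.985% lower in Del#3. limma's adjusted p with the block was 0.852 for Dppa4, 0.983 for Dppa5a and 0.992 for Dppa3, and it called 0.0233% of all genes and none of the members.

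Count models on the recovered reads, used as alternatives, called none of the members at an adjusted p under 0.05 either. edgeR called 0.0155% of all genes and DESeq2 0.0233%. At an unadjusted p under 0.05, edgeR picked none of the members against 1.12% of all genes and DESeq2 none against 1.33%. Their unadjusted p for Dppa4 was 0.0721 and 0.0503. With the block, edgeR called 0.0233% of all genes and picked 4.5% without adjustment, including Dppa4, Dppa3 and Dppa5a. DESeq2 with the block called 0.0698% and picked 3.21%, including Dppa4 and Dppa5a. The lowest adjusted p of any member under any alternative was 0.624, for Dppa5a in DESeq2 with the block.

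The differences of Dppa4, Dppa3 and Dppa5a came closest to 0 without Del#3 replicate 3. Del#3 replicate 3 was the lowest of the 6 libraries for 5 of the 8 members (Dppa2, Dppa4, Dppa3, Dppa5a and Prdm14), against 10.7% of all genes. With that library left out, the log2 difference was -0.50 for Dppa4, -0.48 for Dppa3 and -0.46 for Dppa5a, and limma picked none of the members at an unadjusted p under 0.05, against 1.42% of all genes. It also picked none of the members without EVX1-Δfs replicate 1, 2 or 3, where the log2 difference of Dppa4 was -0.75, -0.89 and -0.85 and the share of all genes picked was 3.47%, 0.867% and 1.63%. Without Del#3 replicate 1 it picked Dppa4, against 0.599% of all genes, and without Del#3 replicate 2 Dppa3 and Dppa5a, against 2%. The direction of these 3 genes was the same whichever library was left out, with ranges of -1.14 to -0.50, -0.90 to -0.48 and -1.03 to -0.46. Del#3 replicate 3 had 9802928 reads on listed genes, and whether depth has a part in its levels was not tested.

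**Figure D3:**
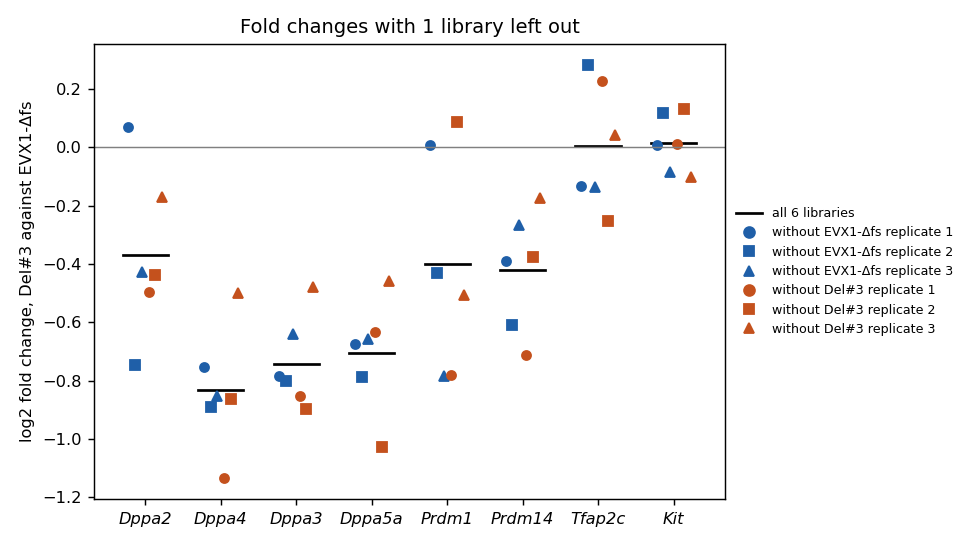
The limma log2 fold change (vertical axis, Del#3 against EVX1-Δfs) of each gene with all 6 libraries (black bar) and with each library left out in turn (points, colour for the line and shape for the replicate number). Dppa4, Dppa3, Dppa5a and Prdm14 stay below 0 throughout, and Dppa2, Prdm1, Tfap2c and Kit cross it.

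Of the PGC transcription factor genes, none differed between the lines by the test. Prdm1 (chr10:44156983-44248307, minus strand) was at 147, 79.7 and 48.4 normalized counts in EVX1-Δfs and at 107, 31.4 and 72.6 in Del#3. Replicate 1 was the highest of both lines, and the lines overlapped over most of their range. The means were 91.8 ± 50.5 and 70.3 ± 37.8 (SD, n = 3 each), with a log2 difference of -0.40 (SE 0.52, 95% interval -1.55 to 0.75) and an exact permutation p of 0.6.

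Prdm14 (chr1:13103538-13117244, minus strand) had the fewest reads of the members. It was at 17.8, 12.9 and 21.3 normalized counts in EVX1-Δfs and at 19.13, 11.6 and 8.54 in Del#3. These values rest on 8 to 27 reads per library, and the lowest count of 8 has an exact Poisson 95% interval of 3.45 to 15.8 reads, which covers counting error only. The lines overlapped, with means of 17.3 ± 4.21 and 13.1 ± 5.45 (SD, n = 3 each), a log2 difference of -0.42 (SE 0.48) and an exact permutation p of 0.4. The log2 difference was -0.18 without Del#3 replicate 3 and -0.71 without Del#3 replicate 1.

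Tfap2c (chr2:172375093-172384122, plus strand, listed as Tcfap2c in the annotation) was at 147, 263 and 147 normalized counts in EVX1-Δfs and at 132, 257 and 170 in Del#3. Replicate 2 was the highest library of each line by a wide margin, and the lines lay on top of each other. The means were 185 ± 66.8 and 186 ± 64.1 (SD, n = 3 each), and the log2 difference was 0.0059 (SE 0.35, 95% interval -0.77 to 0.78), with an exact permutation p of 1. The interval still allows a change of 0.586 to 1.72 times.

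Kit (chr5:75970941-76052747, plus strand) was at 575, 670 and 506 normalized counts in EVX1-Δfs and at 587, 498 and 687 in Del#3. It varied least of the members, with the highest library 1.38 times the lowest. The means were 584 ± 82.7 and 590 ± 94.3 (SD, n = 3 each), with a log2 difference of 0.014 (SE 0.24, 95% interval -0.52 to 0.55) and an exact permutation p of 0.8. The interval corresponds to 0.696 to 1.46 times the EVX1-Δfs level.

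The fitted difference was below 0 for 6 of the 8 genes, against 49.6% of all genes tested. Their median log2 difference was -0.41, or -0.32 without Del#3 replicate 3, beside 0.0022 over all genes tested. These bulk libraries cannot tell fewer cells of a type apart from less RNA per cell.

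The spread of each gene was then divided between lines and replicate numbers, as a description. For Dppa3, Dppa4 and Dppa5a, 62.9%, 55.0% and 50.8% of the sum of squares of the log2 values lay between the lines, and 6.19%, 28.6% and 13.7% between replicate numbers. Tfap2c was the opposite, with 96.1% between replicate numbers and 0.0056% between lines. Prdm1 and Dppa2 had 62.9% and 53.4% between replicate numbers, both below the share of the median gene. The median gene had 6.70% between lines and 64.4% between replicate numbers. Kit followed neither, with 99.4% of its small variation left over. For Prdm14 the shares were 24.3% between lines and 30.6% between replicate numbers.

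**Figure D4:**
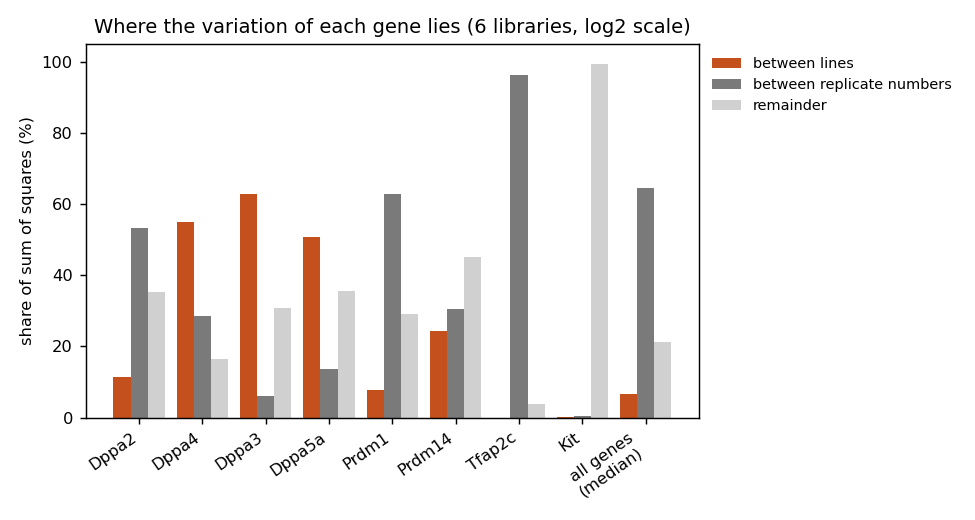
The share of each gene's sum of squares over 6 libraries (vertical axis, percent, log2 scale) that lies between lines (orange), between replicate numbers (dark grey) and in the remainder (light grey), with the median over all genes tested at the right. More than 50% lies between lines for Dppa4, Dppa3 and Dppa5a, while Tfap2c varies with the replicate number.

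The levels of the members were ranked per length, as RPKM computed from the recovered reads and the exon lengths of the annotation. Dppa5a averaged 223 RPKM over the 6 libraries (range 119 to 292) and stood at the 98.3 percentile of the 14796 listed genes with a length. Kit followed at 9.53 (7.56 to 11.2), Dppa3 at 8.03 (4.12 to 10.8), Dppa4 at 7.96 (3.52 to 11.3) and Tfap2c at 4.73 (3.53 to 6.75). Dppa2 averaged 1.96 RPKM (1.19 to 3.89), Prdm1 1.42 (0.505 to 2.59) and Prdm14 0.561 (0.318 to 0.765), at the 36.0, 31.2 and 19.8 percentiles. The ranges of Dppa5a and Kit did not overlap, and those of each other pair of neighbours in this order did. Prdm1 was nevertheless above Prdm14 in every library. Per length, Dppa4 was above its partner Dppa2 in both lines, with mean levels of 9.86 and 2.29 RPKM in EVX1-Δfs and 6.06 and 1.63 in Del#3.

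The 4 Dppa genes have close copies elsewhere in the genome, which matters for how their reads were assigned. Matches of at least 90% identity over at least 100 bases were found at 8 other loci for Dppa5a, 5 for Dppa2, 3 for Dppa3 and 2 for Dppa4. At 5, 3, 2 and 2 of these loci the matches covered at least 50% of the transcript. The longest match of Dppa3 covered 98.4% of its transcript at 97.7% identity and that of Dppa5a 98.9% at 93.6%. The counts of these 4 genes are therefore uncertain where reads could be placed on a copy, and the effect on the difference between the lines was not tested. Tfap2c had 1 partial match, and Prdm1, Prdm14 and Kit had none.

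Over the 6 libraries Dppa3 moved with Dppa4 and with Dppa5a, with a Pearson r of 0.90 for each pair of log2 values, and Dppa4 moved with Prdm14 (r = 0.86). Between Kit and Dppa5a r was -0.63. These values describe 6 libraries that differ in line and replicate number, and carry no test. Among 9122 genes with a mean of at least 100 normalized counts, the most similar to Dppa4 were B3gntl1 (r = 0.98) and Fam134a (r = 0.96), and those most similar to Dppa5a were Lgals3 (r = 0.99) and Ube2f (r = 0.98). Slc24a6 and Psmf1 (both r = 0.99) were most similar to Tfap2c, and D4Wsu53e (r = 0.998) and Elavl1 (r = 0.996) to Kit. Such values were not confined to these genes: 19 genes exceeded an r of 0.9 with Dppa4, 41 with Dppa5a, 99 with Kit and 164 with Tfap2c.

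The wider germ cell programme was read from lists. Of 20 other PGC and germ cell pluripotency genes, 19 could be tested and none was called in either direction, with a median log2 difference of -0.061, or 0.071 without Del#3 replicate 3. A fitted difference below 0 was found for 12 of the 19, against 49.6% of all genes tested. These included Nanos3 (-0.39, SE 0.45), Dnd1 (-0.29, SE 0.32), Ifitm1 (-0.45, SE 0.32), Ifitm3 (-0.35, SE 0.26) and Tdrd5 (-0.40, SE 0.40). Alpl (0.22, SE 0.25) was among those above 0. The 3 genes of the list with the most reads were Pou5f1, Lin28a and Sall4, each a pluripotency gene that PGCs also make. Pou5f1 averaged 6564 ± 87.4 normalized counts in EVX1-Δfs and 6479 ± 1806 in Del#3 (SD, n = 3 each). Lin28a averaged 6553 ± 1329 and 6474 ± 1448, and Sall4 3113 ± 1018 and 3553 ± 678. Pou5f1 was lowest in Del#3 replicate 3, at 4444 normalized counts, while the highest levels of this gene were those of the other Del#3 libraries.

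Of the signals that induce PGCs and their transducers, 15 of 16 could be tested and none was called (median log2 difference 0.017, or -0.058 without Del#3 replicate 3). Id3, a direct BMP target, averaged 3809 ± 1012 and 4087 ± 1511 normalized counts in EVX1-Δfs and Del#3 (SD, n = 3 each). Eomes, a T-box factor of the streak, averaged 3526 ± 694 and 3079 ± 959, and Id1 3364 ± 1096 and 3020 ± 1245. Among 28 late germ cell and meiotic genes, 22 were listed and 11 had enough reads to test, and none was called. Their median log2 difference was -0.33, or -0.27 without Del#3 replicate 3. Of these 11, 6 had a fitted difference below 0, among them Tdrd12 (-0.87, SE 0.50), Tex14 (-0.88, SE 0.70), Brdt (-0.86, SE 0.61) and Rpl10l (-0.71, SE 0.40). The 3 with the most reads had fitted differences above 0. They were the meiotic cohesin genes Rec8, at 110 ± 21.9 and 117 ± 37.0 normalized counts, and Stag3, at 78.3 ± 25.8 and 94.7 ± 26.3, and Tex19.1, at 73.3 ± 38.5 and 78.1 ± 41.5.

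Zscan4a and Usp17le were the only 2 genes listed of 13 two-cell stage genes that lie downstream of DPPA2 and DPPA4. They stood at no more than 5.34 and 2.39 normalized counts in any library, too few to test.

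Among the ligand and the signal transducers of KIT, none of 22 genes was called, with 5 fitted differences below 0 and a median log2 difference of 0.087, or 0.13 without Del#3 replicate 3. Kitl, the stem cell factor gene, averaged 37.4 ± 28.5 normalized counts in EVX1-Δfs and 43.5 ± 32.7 in Del#3 (SD, n = 3 each). The phosphatase gene Ptpn11 averaged 3182 ± 519 and 3173 ± 432, the adaptor gene Shc1 1482 ± 89.7 and 1549 ± 222, and the kinase gene Src 1129 ± 218 and 1226 ± 174. The relatives of the PGC factors were not called either. Of the other PRDM genes 7 were tested (median 0.047, or 0.083 without Del#3 replicate 3), with Prdm2 at 873 ± 197 and 1017 ± 265 normalized counts, Prdm6 at 481 ± 145 and 600 ± 134, and Prdm4 at 321 ± 144 and 272 ± 139. Tfap2a and Tfap2e, the AP-2 genes listed beside Tfap2c, averaged 22.0 ± 15.1 and 18.3 ± 5.57, and 19.9 ± 9.41 and 14.4 ± 5.27.

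Several members are also made by cells other than PGCs, so markers of those cells are given beside them. Of 10 naive pluripotent cell markers tested, 8 had a fitted difference below 0, with a median of -0.38, or -0.27 without Del#3 replicate 3, and none was called. Zfp42 (REX1) was the only 1 of these markers with an unadjusted limma p under 0.05. It was at 343, 341 and 457 normalized counts in EVX1-Δfs and at 288, 181 and 187 in Del#3. The log2 difference was -0.82 (SE 0.28), and limma's unadjusted p of 0.0156 did not survive adjustment (adjusted p 1.00). The summed level of the list was 2134 to 2766 normalized counts in EVX1-Δfs and 2106 to 2655 in Del#3. More than 50% of it was Tbx3, which mesoderm also makes, at 1427 ± 287 and 1712 ± 363 (SD, n = 3 each). Without Tbx3, a choice made after these values were seen, the other 10 genes summed to 943, 1309 and 1008 normalized counts in EVX1-Δfs and to 842, 793 and 632 in Del#3. Tbx3 was left out for its size and its direction, so these sums are no measure of how far the lines lie apart. Klf2 averaged 204 ± 137 and 148 ± 41.8, Nr0b1 45.5 ± 8.02 and 25.3 ± 6.57, and Tfcp2l1, with a fitted difference above 0, 24.2 ± 15.8 and 26.9 ± 7.08. Tcl1, which the PGC list also holds, was at 0 in a library. Across the lists, the lines did not overlap for Zfp42 and Nr0b1 of the naive markers, Lyn and Mitf of the KIT list, Rpl10l of the late germ cell list and Sox17 of the endoderm markers, against 3.51% of all genes. Each was lower in Del#3 except Mitf. Whether naive cells have a part in the lower fitted levels of Dppa4, Dppa3 and Dppa5a, none of which was called, was not tested.

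The other marker lists had medians nearer 0. The median log2 difference was -0.073 for 6 primed epiblast markers, -0.11 for 9 nascent mesoderm and for 9 endoderm markers, 0.051 for 12 blood and endothelial markers and 0.071 for 9 surface ectoderm or trophoblast markers, with none called. Without Del#3 replicate 3 the primed epiblast median was 0.076, the endoderm median -0.012 and the blood and endothelial median 0.087. The markers of day 4 EBs were present in all libraries: nascent mesoderm genes summed to 7513 to 9291 normalized counts in EVX1-Δfs and 5969 to 9280 in Del#3, and primed epiblast genes to 11412 to 19087 and 11707 to 18836. The genes with the most reads averaged as follows in EVX1-Δfs and Del#3 (SD, n = 3 each). Of the primed epiblast genes, Dnmt3b was at 11932 ± 3015 and 12023 ± 3204 normalized counts, Sox2 at 1013 ± 318 and 863 ± 251, and Fgf5 at 961 ± 307 and 889 ± 29.3. Of the mesoderm genes after Eomes, Mesp1 was at 1383 ± 162 and 1203 ± 430 and T at 1160 ± 63.0 and 1108 ± 233. Of the endoderm genes, Cer1 was at 2222 ± 385 and 1834 ± 339, Gata4 at 864 ± 226 and 789 ± 130, and Sox17 at 762 ± 43.6 and 601 ± 71.9.

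Blood and endothelial markers, of cells that also make KIT, summed to 4778 to 5444 and 4387 to 5677 normalized counts. Kdr was at 1736 ± 293 and 1666 ± 625, Etv2 at 760 ± 167 and 703 ± 222, and the embryonic globin gene Hbb-bh1 at 620.5 ± 193 and 627 ± 141 (SD, n = 3 each). Surface ectoderm or trophoblast markers, of cells that also make TFAP2C, summed to 14735 to 22033 and 18161 to 21699. Most of this was Hand1 and the keratin genes Krt8, at 10642 ± 2463 and 10629 ± 787, and Krt18, at 4506 ± 942 and 4356 ± 337. Hand1 was at 2812 ± 980 and 3958 ± 1358. The study counts Hand1 and Cdx2 (512 ± 113 and 681 ± 84.2) among genes of posterior mesoderm patterning. Some others of the list were low, with Krt7 at 40.2 ± 9.34 and 42.7 ± 21.4, Trp63 at 18.1 ± 9.48 and 19.9 ± 7.95, and Elf5 at 2.84 ± 0.602 and 2.14 ± 1.34. The sums are therefore no measure of such cells. The share of PGCs in these EBs was not estimated.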

How the data were processed

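Libraries of poly(A)-selected RNA from 6 EB samples were sequenced by the authors on the Ion Proton. Their reads were aligned to mm9 (TopHat2 first, TMAP second), counted with HTSeq and normalized with DESeq2 (versions not given in the sources used here). The deposited values are a signal, HTSeq counts divided by a size factor per library. In every library each value (100%) was a whole number of steps of 1 size (tolerance 0.01 reads), and division by the step gave the reads. Rows named Mar-02 occur more than once and were kept apart.

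The main test was limma-trend (limma 3.58.1, R 4.3.3) on log2(normalized count + 1) over 12891 genes that passed filterByExpr of edgeR 4.0.16 (minimum count 10), with Benjamini-Hochberg adjustment over all of them and a threshold of 0.05. Differences are understated for low genes by the pseudocount. Members were tested one by one with an exact two-sided permutation test. edgeR's quasi-likelihood test and DESeq2 1.42.0 on the recovered reads were alternatives, as were other scalings, pseudocounts, filters and left-out libraries. RPKM used exon lengths of GENCODE vM1 (NCBIM37, the mm9 assembly), from which gene positions also come; 96.9% of listed genes matched by symbol. Copies were sought by BLAST of the transcripts against that genome, counting matches outside the gene itself.

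The series' design text gives 3 side by side differentiations of the lines, each on a different day, and the titles number the replicates. Equal numbers were taken as pairs on that ground, although the labels do not say so number by number. The deviations of same-numbered libraries from their line means correlated across genes at 0.74, 0.32 and -0.053 for replicates 1, 2 and 3, and those of EVX1-Δfs replicate 3 and Del#3 replicate 2 at 0.42. The study's methods name no block, so the block was an alternative. Replicates are separate differentiations of the same lines, and p-values measure the spread between these. Read intervals cover counting error only.

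All 9 members were named, together with the edited genes, the 3 members of each list with the most reads or any past the threshold, and the 2 genes most like each member with a mean of at least 100 normalized counts. Further genes were named after their values were seen. They were Kitl, Lyn, Mitf, Rpl10l, Zscan4a, Usp17le and the neighbours of Dppa3 and Dppa5a. From the PGC and late germ cell lists came Nanos3, Dnd1, Ifitm1, Ifitm3, Tdrd5, Alpl, Tdrd12, Tex14 and Brdt. From the cell type markers came Nr0b1, Tfcp2l1, Tcl1, Esrrb, Klf4, Klf5, Cdx2, Krt7, Trp63 and Elf5. The members and lists were chosen with earlier results of these data known. The analysis scripts were tested on simulated data, in 3 simulations with 200 changed genes each. limma recovered 11.4% of the genes changed 2-fold and 82.8% of those changed 4-fold. For 2-fold changes edgeR recovered 11.1% and DESeq2 24.8%. A gene that was not called may therefore still differ between the lines.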

Additional observations from a re-analysis of the deposited data

How the results depend on the processing

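The count of members called stayed at 0 and that of the lists at 0 under every alternative run. The count over all genes was 2 in the main analysis, 3 with the replicate block in limma and in edgeR and in DESeq2 without it, and 9 in DESeq2 with the replicate block; the cause of that increase was not tested. Leaving out each library in turn turned the direction of 4 genes in some cases, with log2 differences from -0.75 to 0.070 for Dppa2, -0.78 to 0.086 for Prdm1, -0.25 to 0.28 for Tfap2c and -0.10 to 0.13 for Kit. Dppa4, Dppa3 and Dppa5a kept their direction in all 17 alternatives and Prdm14 in the 16 that tested it, since a minimum of 10 reads in every library removed it. Unadjusted p ranged from 0.0082 to 0.183 for Dppa4 (under 0.05 in 9 alternatives), from 0.0387 to 0.217 for Dppa3 (3) and from 0.0024 to 0.179 for Dppa5a (10). Another scaling moved the median of all genes by no more than 0.035 on the log2 scale. The design holds 2 lines with 3 libraries each, and unedited EBs were not used here. Prdm14 rests on 8 to 27 reads per library.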
